A study of Mus musculus with 132 samples.

Results

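The extracellular matrix is the protein mesh that cells secrete and hold on to. Here 10 genes of the matrix and its receptors were followed through the first lineage split of the mouse embryo. They were Spp1 (osteopontin), Fn1 (fibronectin), Lama1, Lamb1 and Lamc1 (the 3 chains of laminin-111), Col4a1 and Col4a2 (the chains of collagen IV), Sparc (a collagen-binding glycoprotein), and Itgav and Itgb1 (integrin subunits that bind these ligands). These were picked by gene symbol, and all 10 were found among the 32245 genes measured. The pick was made with earlier results of these data known, so counts of members beside shares over all genes are descriptions only. The cells came from embryos of C57BL/6 x DBA F1 mice (C57BL/6NCrl x DBA/2NHsd in the study's methods) that were put into culture at the 2-cell stage. A synthetic mimic of miR-381-3p was added to the medium of one arm, and a scrambled mimic, which serves as the control and is itself an oligonucleotide, to that of the other. Single cells were picked at the 8-cell stage (embryonic day 2.5; 30 control and 24 mimic cells) and at the 32-cell stage (embryonic day 3.5; 39 control and 39 mimic cells), and sequenced with Smart-seq2, which reads polyadenylated RNA along the whole transcript. Mimics were used at 5 or 10 µM, which the labels do not assign to cells. In the study's text the higher concentration goes with the earlier stage and the lower with the later one, with the scrambled mimic at the same concentration as miR-381-3p, so stage and dose cannot be told apart in either arm. Each group held cells of 3 to 5 embryos, and no label ties a cell to its embryo.

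Laminins are built from an alpha, a beta and a gamma chain, and self-assemble at the cell surface into the first sheet of a basement membrane. Collagen IV, made of alpha-1 and alpha-2 chains, forms a further network, and nidogen links both. Fibronectin and osteopontin are adhesive glycoproteins read by integrins that contain the alpha-v subunit or the beta-1 subunit, and the beta-1 integrins also receive laminin. In the blastocyst the inner cell mass (ICM) and later the primitive endoderm are known as matrix-producing cells, while the outer trophectoderm (TE) is an epithelium that uses integrins in implantation.

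The mature miR-381-3p that the mimic copies is shown first, because its seed (bases 2 to 8, in capitals) is the part that would pair with a transcript. It is taken from RefSeq and lies on chromosome 12 (GRCm38.p6, 109726870 to 109726891, plus strand):
mmu-miR-381-3p: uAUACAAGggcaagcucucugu
For every gene the 3′ UTR of greatest annotated length (GENCODE M21, GRCm38) was searched on the transcript's strand for the 8-letter match CTTGTATA and for its 7-letter parts CTTGTAT and TTGTATA, which overlap it. No member held the 8-letter match, which 3.11% of 20775 genes with a 3′ UTR held. A 7-letter or 8-letter match was found in 3 of the 10 members and in 21.6% of all those genes. All 3 were TTGTATA, in capitals below. They lie in Lamb1 (chr12:31329634-31329640, plus strand), Lamc1 (chr1:153219213-153219219, minus strand) and Col4a1 (chr8:11198523-11198529, minus strand):
Lamb1: agacattggttTTGTATAaaca
Lamc1: ccattgctttaTTGTATAgttccaataac
Col4a1: aataaaactatTTGTATAaaaatgaagct
These are matches of letters and nothing was measured at them.

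Total counts per cell ranged from 544866 to 3461022, and levels are given as CPM, the counts of a gene per 1000000 counts of genes that are not mitochondrial, summed over the cells of a group. Brackets after a pooled CPM or a ratio give an exact 95% interval of the counting error. The reads carry no molecular identifiers, so the interval counts reads and does not cover the sampling of molecules. Nor does it cover the spread between cells or embryos. A group is 1 sample here, and no test could be made between groups. A change is a difference of log2(CPM + 1), which understates the change of low genes, and a member is counted as higher or lower when that change is 1 or more in size and it reached 20 CPM in either group. The share of all genes at that level that passed the same limit is given beside each count.

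The 32-cell cells fell into a cluster of 39 cells with the higher level of all 9 ICM markers and a cluster of 39 cells with the higher level of all 9 TE markers, formed without the members and the other matrix genes, and they are called ICM-like and TE-like. ICM-like cells were 25 of 39 in control and 14 of 39 in mimic. The control classes were the same cells when placed by marker score or when all genes entered the clustering, while 34 and 38 of the 39 mimic cells kept their class. In TE-like mimic cells the summed CPM of the ICM markers was 755, against 549.9 in TE-like control cells, and that of the TE markers was 7714, against 10891. In ICM-like mimic cells those sums were 2031 and 1739.6, against 2148 and 2237 in ICM-like control cells. Single ICM markers differed more than their sum, with Tdgf1 at 30 CPM in ICM-like mimic and 400.5 CPM in ICM-like control cells and Spic at 967 and 755 CPM. Of the primitive endoderm markers, Gata6 and Pdgfra had counts in all 32-cell pools, while Foxa2 had none. The 6 cumulus cell markers summed to at most 0.0574 CPM in any pool.

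Features of the libraries went with the groups. At the 32-cell stage all 39 control cells held Y-linked transcripts (Ddx3y, Eif2s3y, Kdm5d and Uty, 88.7 to 1194 CPM summed) and all 39 mimic cells held Xist (249.9 to 3212 CPM), so treatment cannot be told apart from the sex of the embryos there. The 8-cell groups were mixed, with Xist and no Y-linked count in 16 of 30 control and 3 of 24 mimic cells. The stages of each arm thus also differed in these transcripts, and stage is not separated from sex in either arm. The numbers in the cell names also form runs of consecutive cells, 2 in 32-cell control (24 and 15 cells) and 3 in 32-cell mimic (18, 12 and 9 cells), each of 1 treatment. They are named below by their number of cells, and no label says what a run is. The runs differed in several members, so values without a run are given beside the results that turned on one, and the plot of log2 changes shows the range over left-out runs for every member.

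From the 8-cell to the 32-cell stage in control embryos, all 10 members passed the limit: 9 were higher and Itgav was lower. Over all genes at 20 CPM, 30% were higher and 20.1% lower by that limit. The median log2 change was 3.41 over the members and 0.20 over all 7469 genes. In mimic embryos 4 of the 7 members that reached 20 CPM were higher and 0 were lower, beside 29.1% higher and 18.8% lower over all genes. Lama1, Col4a2 and Sparc stayed under 20 CPM in both mimic groups, with log2 changes of 2.37, 1.18 and 3.02. That of Col4a2 was 0.40 without the mimic run of 18 cells, and Sparc passed 20 CPM and counted as higher without the mimic run of 12 or of 9 cells (24.3 and 20.1 CPM at the 32-cell stage, against 19.8 with all).

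Osteopontin, a secreted phosphoprotein (Spp1, chr5:104435118-104441050), had the steepest difference. At the 8-cell stage Spp1 had counts in 1 of 30 control cells (119.8 CPM in that cell) and in 1 of 24 mimic cells (50.9 CPM). At the 32-cell stage it had counts in 37 of 39 control cells, from 0 through a median of 694 to 2726 CPM, and in 34 of 39 mimic cells, from 0 through 134.8 to 2072 CPM. The pooled level went from 3.67 CPM (3.08 to 4.35) to 758 CPM (751 to 765) in control, a ratio of 206 (174.3 to 246), and from 2.36 to 386 CPM in mimic, a ratio of 163.5 (130 to 209). Without the control run of 24 cells the 32-cell level was 502 CPM. In control, 99.9% of all genes at 20 CPM had a smaller change.

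Fibronectin (Fn1, chr1:71585520-71653200) was already counted in a minority of 8-cell cells. Fn1 had counts in 9 of 30 8-cell control cells, of which the highest held 101.2 CPM, and in 6 of 24 8-cell mimic cells, of which the highest held 56.2 CPM. It was found in 31 of 39 32-cell control cells (median 131.7, highest 742 CPM) and in 20 of 39 32-cell mimic cells (median 4.69, highest 301 CPM). Pooled, it was 17.7-fold (15.9 to 19.8) higher at the 32-cell stage in control and 8.02-fold (6.89 to 9.38) higher in mimic. The control run of 24 cells held 224 CPM of Fn1 and that of 15 cells 89.7 CPM, and without the former the log2 change in control was 3.1 instead of 4.01.

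Of the laminin chains, beta-1 (Lamb1, chr12:31265234-31329644) and gamma-1 (Lamc1, chr1:153218922-153332786) were counted in more 8-cell cells than alpha-1 (Lama1, chr17:67697259-67822647). Lamb1 had counts in 11 of 30 8-cell control cells and Lamc1 in 14 of 30, whereas Lama1 had counts in 1 cell. At the 32-cell stage of control embryos Lama1 was found in 17 of 39 cells, Lamb1 in 29 and Lamc1 in 33. Their pooled ratios between the stages in control were 18.4 (13.7 to 25.3) for Lama1, 4.54 (4.23 to 4.89) for Lamb1 and 2.83 (2.63 to 3.04) for Lamc1. In mimic the ratio of Lamb1 was 1.6 (1.48 to 1.72), under the limit, and that of Lamc1 was 3.81 (3.51 to 4.14). Without the control run of 24 cells Col4a2 was under 20 CPM at both stages (12.9 CPM at the later one), and without the control run of 15 cells so was Lama1 (19.2 CPM), while Itgb1 was at a log2 change of 0.99.

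The collagen IV genes, Col4a1 (chr8:11198423-11312826) and Col4a2 (chr8:11312805-11449287), had counts in few 8-cell cells. Col4a1 had counts in 2 of 30 control cells and Col4a2 in 2 of 30, and at the 32-cell stage in 35 and 24 of 39. The pooled level of Col4a1 went from 3.48 CPM (2.91 to 4.14) to 90.4 CPM (88 to 92.9), and that of Col4a2 from 0.599 CPM (0.375 to 0.907) to 26.2 CPM (24.9 to 27.6). Of the 22 8-cell control counts of Col4a2, 19 came from 1 cell of the run of 2 cells, without which the level was 0.0885 CPM. In the 8-cell control group 79.7% of the Col4a1 counts came from 1 cell, and without a run of 2 such cells the log2 change of Col4a1 between stages was 5.69 instead of 4.35. In mimic Col4a1 was 7.11-fold (6.14 to 8.28) higher, but without the mimic run of 18 cells its 32-cell level was 13.5 CPM in place of 44.6. Sparc (chr11:55394500-55423183), whose protein binds collagen IV, was 13.7-fold (11.3 to 16.7) higher at the 32-cell stage in control and 12.7-fold (9.54 to 17.4) higher in mimic.

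Col4a1 and Col4a2 are transcribed away from each other, and their annotated first bases overlap by 22 bases on chromosome 8 (GRCm38, chr8:11312805-11312826). The plus strand of that stretch, which is the start of Col4a2, is shown because it is all that the annotated genes share (in capitals, from RefSeq's promoter table on GRCm38.p6):
Col4a2 start: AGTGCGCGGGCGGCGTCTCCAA
Reads from that stretch cannot be assigned to a gene without strand, and the same holds where exons of Fn1 overlap Apol7d (up to 197 bases), those of Col4a2 overlap Gm15419 (up to 43 bases) and those of Itgav overlap Gm13684 (up to 634 bases).

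The integrin subunits Itgav (chr2:83724397-83806916) and Itgb1 (chr8:128685654-128733200) differed in opposite directions between the stages in control. Itgav had counts in all 30 8-cell control cells, from 0.892 through a median of 96.2 to 290.4 CPM, and in 30 of 39 32-cell control cells, with a median of 2.42 and a highest value of 149.2 CPM. The pooled level of Itgav was 5.21-fold (4.88 to 5.57) lower at the 32-cell stage in control and 1.62-fold (1.53 to 1.71) lower in mimic. The size of this difference depended on the run. The 32-cell control run of 24 cells held 6.23 CPM of Itgav and that of 15 cells held 41.1 CPM, and the log2 change was -1.34 without the former and -3.88 without the latter, against -2.32 with both. Itgb1, the partner of most laminin and fibronectin receptors, was 2.09-fold (2.01 to 2.18) higher in control. In mimic its level was 110.03 CPM at the 8-cell and 115.4 CPM at the 32-cell stage, a ratio of 1.05 (1.01 to 1.09), and without the mimic run of 9 cells it was lower at the 32-cell stage (log2 change -0.24).

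**Figure D1:**
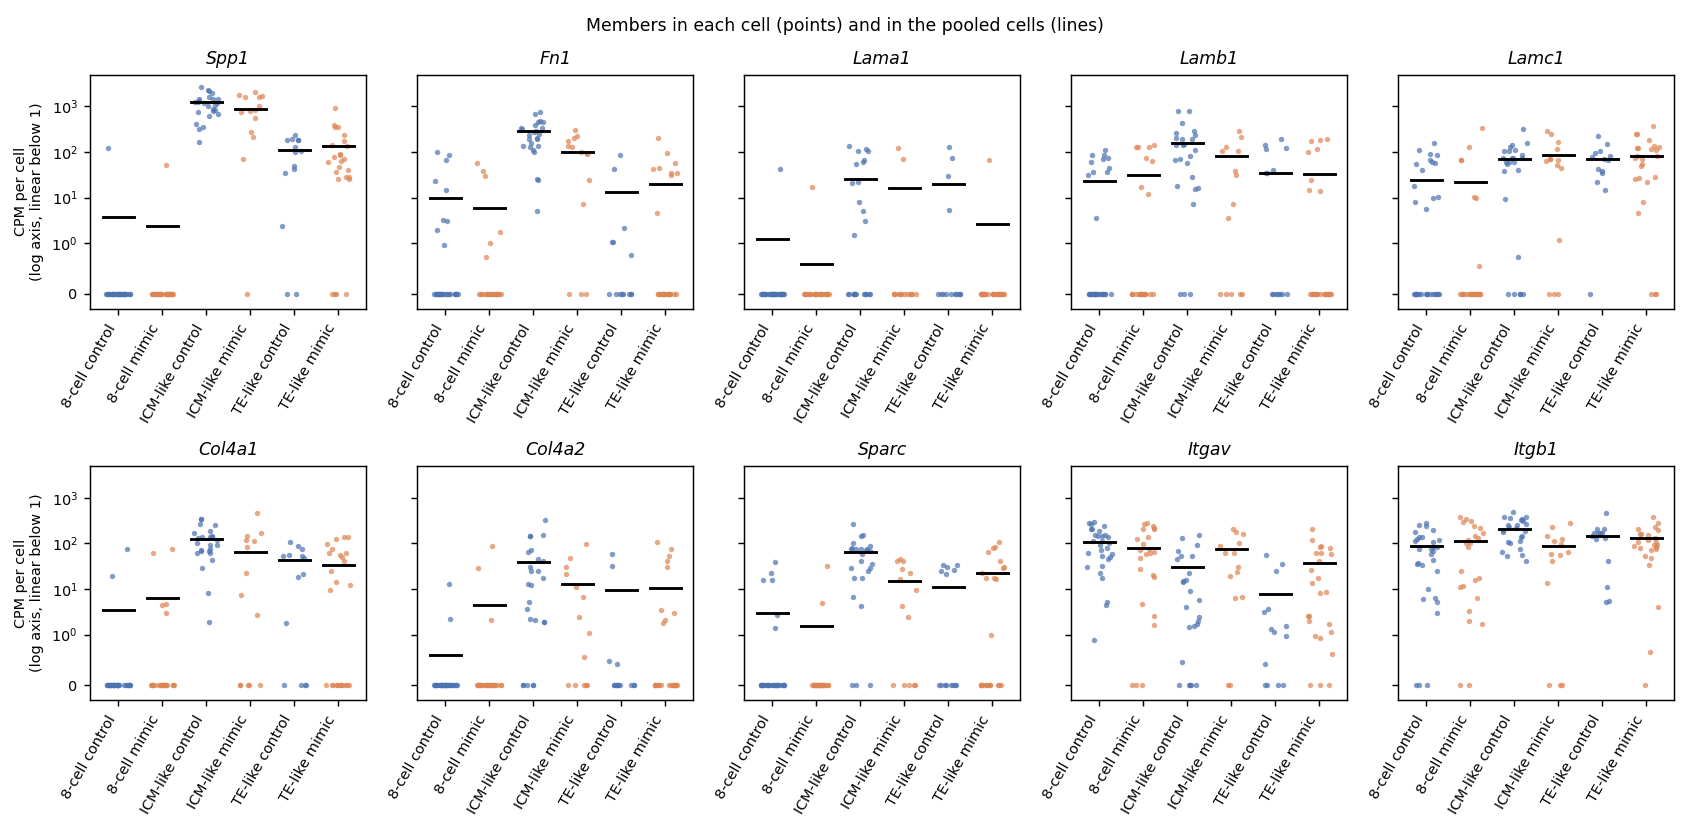
CPM of each member per cell (points; vertical axis logarithmic above 1 and linear below) in 8-cell, ICM-like and TE-like cells, control in blue and mimic in orange, with the pooled CPM of each group as a black line. Spp1 had a count in 1 cell of each 8-cell group and in all 25 ICM-like control cells, while Itgav had one in all 30 8-cell control cells.

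Within 32-cell control embryos, 7 of the 10 members were higher in ICM-like than in TE-like cells and 0 were lower. Over all 7239 genes at 20 CPM, 11.9% were higher and 10.1% lower. All cells of both classes got the scrambled mimic and held Y-linked transcripts. Spp1 was 1242 CPM (1229.6 to 1254) in ICM-like and 111.6 CPM (107.4 to 115.8) in TE-like cells. Its values in single cells ran from 166.3 to 2726 CPM in the 25 ICM-like and from 0 to 232 CPM in the 14 TE-like cells, and 24 of the 25 lay above every TE-like cell. Without the run of 24 cells the log2 change of Spp1 was 2.84 instead of 3.46.

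Fn1 had the largest ratio between the control classes, 287 CPM (282 to 293) against 13.0 CPM (11.6 to 14.5), or 22.1-fold (19.7 to 24.8). All 25 ICM-like cells held Fn1, from 5.00 through a median of 230.4 to 742 CPM, and 22 of them lay above every TE-like cell. In TE-like cells it had counts in 6 of 14 cells, and 84.2% of those counts came from 1 cell. Sparc was 5.81-fold (5.11 to 6.62) higher in ICM-like cells, Lamb1 4.61-fold (4.28 to 4.96), Col4a2 4.02-fold (3.5 to 4.64), Itgav 3.90-fold (3.33 to 4.59) and Col4a1 2.87-fold (2.68 to 3.08). The log2 change of Sparc was 2.43, and it was 3.6 without the run of 24 cells (84.8 against 6.08 CPM) and 1.72 without the run of 15 cells (50.2 against 14.5 CPM).

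Lamc1, Lama1 and Itgb1 did not separate the control classes by 2-fold. Lamc1 was 69.8 CPM in ICM-like and 69.9 CPM in TE-like cells, a ratio of 1.0 (0.939 to 1.07), although the run of 15 cells alone gave 87.7 against 43 CPM and the run of 24 cells gave 58.7 against 89.8 CPM. Lama1 was 25.6 against 19.6 CPM, and 63.5% of its TE-like counts came from 1 cell. The run of 15 cells gave 27.9 against 29.9 CPM of Lama1 and the run of 24 cells 24.3 against 12 CPM, so its direction turned with the run. Itgb1 was 210.5 CPM against 148.01 CPM, with counts in all 39 cells. Spp1, Fn1, Lamb1, Col4a1, Col4a2, Sparc and Itgav were higher in ICM-like cells in each of the 2 runs of control cells. Without the run of 24 cells the count was 8 members, with Lamc1 added and Col4a2 at a log2 change of 4.48, since 233 of its 234 TE-like counts came from that run. Over all genes 16.1% were then higher and 14.8% lower. Without the run of 15 cells it was 6, with Itgav at a log2 change of 2.12 but under 20 CPM, beside 17.1% higher and 12.7% lower over all genes.

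In mimic embryos 4 of the 8 members that reached 20 CPM were higher in ICM-like cells (Spp1, Fn1, Lamb1 and Itgav) and 0 were lower, beside 7.67% higher and 8.39% lower over all genes. Spp1 was 898 CPM (884 to 912) against 137.5 CPM (133.7 to 141.4), a ratio of 6.53 (6.32 to 6.74). Fn1 was 101.7 CPM (97 to 106.5) against 19.9 CPM (18.5 to 21.4), a ratio of 5.10 (4.67 to 5.57). Both were higher in ICM-like cells in the mimic runs of 18 and 12 cells. In the run of 9 cells, with 2 ICM-like cells, both went the other way. There Spp1 was 151.5 against 174.4 CPM and Fn1 5.28 against 19.8 CPM. Sparc was 15.1 CPM in ICM-like and 22.1 CPM in TE-like mimic cells, and Itgb1 87.4 and 128.97 CPM, both on the other side from control but under the limit. Both directions turned on 1 run: the log2 change of Sparc was -0.52 and became 0.40 without the mimic run of 18 cells, and that of Itgb1 was -0.56 and became 0.11 without the mimic run of 9 cells. These counts rested on small runs. Without the mimic run of 12 cells the number of members past the limit was 8, of which Sparc and Itgb1 were lower, beside 10.3% higher and 12.3% lower over all genes. Without the mimic run of 9 cells, which held 2 ICM-like cells, it was 2 (Spp1 and Fn1), beside 8.25% higher and 9.28% lower. The difference between treatments in these ratios was not tested.

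**Figure D2:**
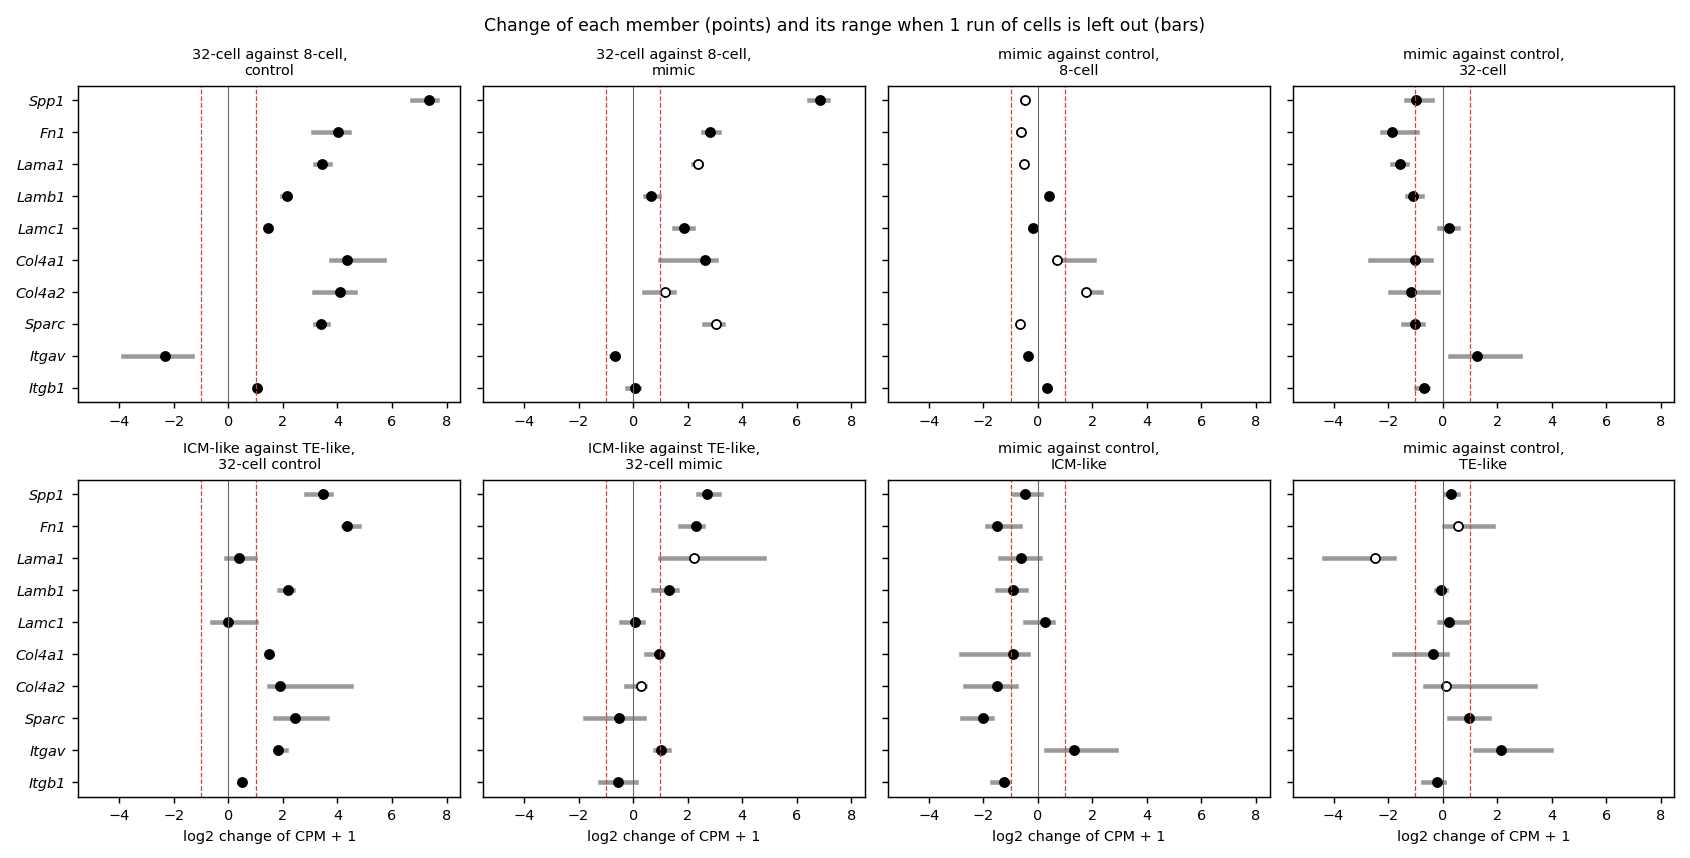
Log2 change of CPM + 1 of each member in the 8 comparisons (points, open where the member is under 20 CPM in both groups), with the range of that change when 1 run of cells is left out (grey bars) and the limit of 1 in size (dashed lines). In control, 9 members are higher at the 32-cell stage and Itgav is lower, and Itgav is higher in mimic in all 3 32-cell comparisons.

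At the 8-cell stage 0 of the 4 members that reached 20 CPM passed the limit between mimic and control cells. Over all 6570 genes at that level, 6.96% were higher and 6.09% lower. Lamb1 was 30.9 CPM in mimic and 23 CPM in control, Lamc1 21.6 and 24.7 CPM, Itgav 80.8 and 105.4 CPM, and Itgb1 110.03 and 87.8 CPM, with log2 changes between -0.38 and 0.41. The other 6 members were under 10 CPM in both groups. Col4a2 differed most among them, at 4.43 CPM (3.72 to 5.24) in mimic and 0.599 CPM in control, but it had counts in 3 of 24 and 2 of 30 cells. The run of 2 control cells held 79.7% of the Col4a1 counts of its group, and without that run the log2 changes of Col4a1 and Col4a2 were 2.04 and 2.32, against 0.70 and 1.76 with it. Of the 3 members with a 7-letter match, Lamb1, Lamc1 and Col4a1 had log2 changes of 0.41, -0.19 and 0.70 at this stage.

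At the 32-cell stage 6 members were lower in mimic than in control cells and 1 was higher, beside 5.36% lower and 6.87% higher over all 7307 genes at 20 CPM. The median log2 change was -1.01 over the members and 0.01 over all genes. The lower members were Fn1 (log2 change -1.84), Lama1 (-1.56), Col4a2 (-1.15), Lamb1 (-1.07), Sparc (-1.01) and Col4a1 (-1.0), and the higher one was Itgav (1.26). Spp1 was just inside the limit at -0.97, Itgb1 was at -0.67 and Lamc1 at 0.23, which was -0.15 without the mimic run of 12 cells. Of the members with a 7-letter match, Lamb1 and Col4a1 were thus among the lower ones and Lamc1 was not. Fn1, Lama1, Col4a2 and Sparc, which hold no match, were lower as well. Within ICM-like cells Lamb1 and Col4a1 were both at -0.92, and within TE-like cells at -0.05 and -0.34, all inside the limit. Whether the matches play a part was not tested.

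This comparison mixed cells of both classes, and the mimic group held fewer ICM-like cells. By marker score these were 17 of 39 in mimic and 25 of 39 in control. The study's protein staining of 32-cell blastocysts found the ICM and TE shares of cells not shifted by the mimic. The comparison also rested on the control run of 24 cells. Without that run 2 members were lower (Lama1 and Sparc) and 0 higher, beside 6.06% lower and 9.37% higher over all genes, while Fn1 was at -0.93, Lamb1 at -0.90, Spp1 at -0.38, Col4a1 at -0.43, Col4a2 at -0.18 and Itgav at 0.28. Without the control run of 15 cells Itgav was at 2.82 and Spp1 passed the limit at -1.27. Without the mimic run of 9 cells the number past the limit was 4, beside 5.32% lower and 7.99% higher over all genes, and without that of 18 cells Col4a1 was at -2.66 and Col4a2 at -1.93. Against either run of control cells, each of the 3 mimic runs was lower in Fn1, Lama1, Lamb1, Sparc and Itgb1 and higher in Itgav, although the last differed by as little as 0.04 on the log2 scale. Col4a1 ranged more between the mimic runs, with 95.4, 16.8 and 9.97 CPM, than between the groups.

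Within ICM-like cells, 4 members were lower in mimic than in control (Fn1, Col4a2, Sparc and Itgb1) and Itgav was higher, beside 9.55% lower and 10.7% higher over all 7372 genes at 20 CPM. Sparc had the largest difference, 63.5 CPM (60.8 to 66.3) in control and 15.1 CPM (13.3 to 17) in mimic, 4.2-fold (3.7 to 4.8) lower. It ran from 0 through a median of 56.9 to 266 CPM in the 25 control cells and from 0 through 6.93 to 45.1 CPM in the 14 mimic cells, and 13 control cells lay above every mimic cell. Fn1 was 2.83-fold (2.69 to 2.98) lower and Col4a2 2.95-fold (2.56 to 3.42) lower.

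Itgb1 was 210.5 CPM (206 to 216) in ICM-like control and 87.4 CPM (83 to 91.9) in ICM-like mimic cells, 2.41-fold (2.28 to 2.55) lower. Counts were found in all 25 control cells, from 41.5 CPM up, and in 11 of 14 mimic cells. Spp1 was 1242 against 898 CPM, a log2 change of -0.47, and Lamc1 69.8 against 84.3 CPM, a change of 0.27. Both directions turned with a run, since Spp1 was at 0.12 without the control run of 24 cells and Lamc1 at -0.46 without the mimic run of 12 cells. Lama1 (-0.62), Lamb1 (-0.92) and Col4a1 (-0.92) were also inside the limit. The direction of Lama1 turned too, at 27.1 CPM in mimic without the run of 12 cells, against 25.6 CPM in control. Without the control run of 24 cells the members past the limit were Sparc and Itgb1, beside 10% lower and 14.2% higher over all genes, and Fn1 was at -0.65, Col4a2 at -0.80 and Itgav at 0.30. Without the control run of 15 cells 6 members were lower, with Lamb1 (-1.02) and Col4a1 (-1.18) added, and Itgav was at 2.87. Over all genes 11.4% were then lower and 11.9% higher. With the mimic run of 9 cells left out 6 were also lower, Lama1 (-1.38) and Lamb1 (-1.49) among them. The shares over all genes were then 9.21% lower and 11.1% higher. Without the mimic run of 18 cells Col4a1 was at -2.82 and Col4a2 at -2.67. Without the mimic run of 12 cells Sparc was at -2.78, against -2.0 with it. The ICM-like cells of the larger control run held 366 CPM of Fn1 and those of the smaller held 160.2 CPM, while the mimic runs with 5 or more ICM-like cells held 108.8 and 136.1 CPM.

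Markers of primitive endoderm, which is known to secrete basement membrane, also differed between ICM-like mimic and control cells, and their part in these values was not tested. For these ICM-like cells the list of 6 markers summed to 335 CPM (control) and 321 CPM (mimic). Of the 6, 5 had counts in the 25 control cells and 2 in the 14 mimic cells, and of the 3 with counts in control alone Sox7 rested on 1 count, Gata4 on 2 cells and Sox17 on 7 cells, 1 of which held 61.3% of its counts. Pdgfra was 206 CPM in control and 109.3 CPM in mimic, Sox17 was 16.6 and 0 CPM, and Gata6 was 111.1 and 211 CPM, and Pdgfra and Gata6 are also in the ICM list. Summed over the list, single cells ran from 0 to 1113 CPM in control and from 58.4 to 1495 CPM in mimic.

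Within TE-like cells, Itgav was the 1 member past the limit among the 7 that reached 20 CPM, and it was higher in mimic. Over all 7335 genes at 20 CPM, 12% were higher and 7.51% lower. Itgav was 7.60 CPM (6.55 to 8.78) in TE-like control and 37.2 CPM (35.3 to 39.3) in TE-like mimic cells, a ratio of 4.9 (4.2 to 5.74). It stayed past the limit without any one run, between 1.18 and 3.98 on the log2 scale. The 3 mimic runs held 36.9, 32.3 and 41.6 CPM of Itgav, and the 2 control runs 1.43 and 15.9 CPM. Sparc was 10.9 CPM in control and 22.1 CPM in mimic, a log2 change of 0.95, and passed the limit without the control run of 24 cells (1.7) or the mimic run of 12 cells (1.42). It was 0.24 without the mimic run of 18 cells, and the TE-like cells of the mimic runs of 18, 12 and 9 cells held 38.3, 0 and 23.5 CPM of Sparc. Col4a1 was 43.6 against 34.3 CPM, and at a log2 change of -1.78 without the mimic run of 18 cells. Spp1 was 111.6 against 137.5 CPM and Lamb1 34.1 against 32.9 CPM. Lamb1, Lamc1, Col4a1, Col4a2 and Itgb1, with log2 changes between -0.34 and 0.22, each changed direction when 1 run was left out. Lama1 was 19.6 CPM in control, under the level required, and 2.71 CPM in mimic, where it had counts in 1 of 25 cells. Without the control run of 24 cells its control level was 29.9 CPM and it passed the limit at -3.06.

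**Figure D3:**
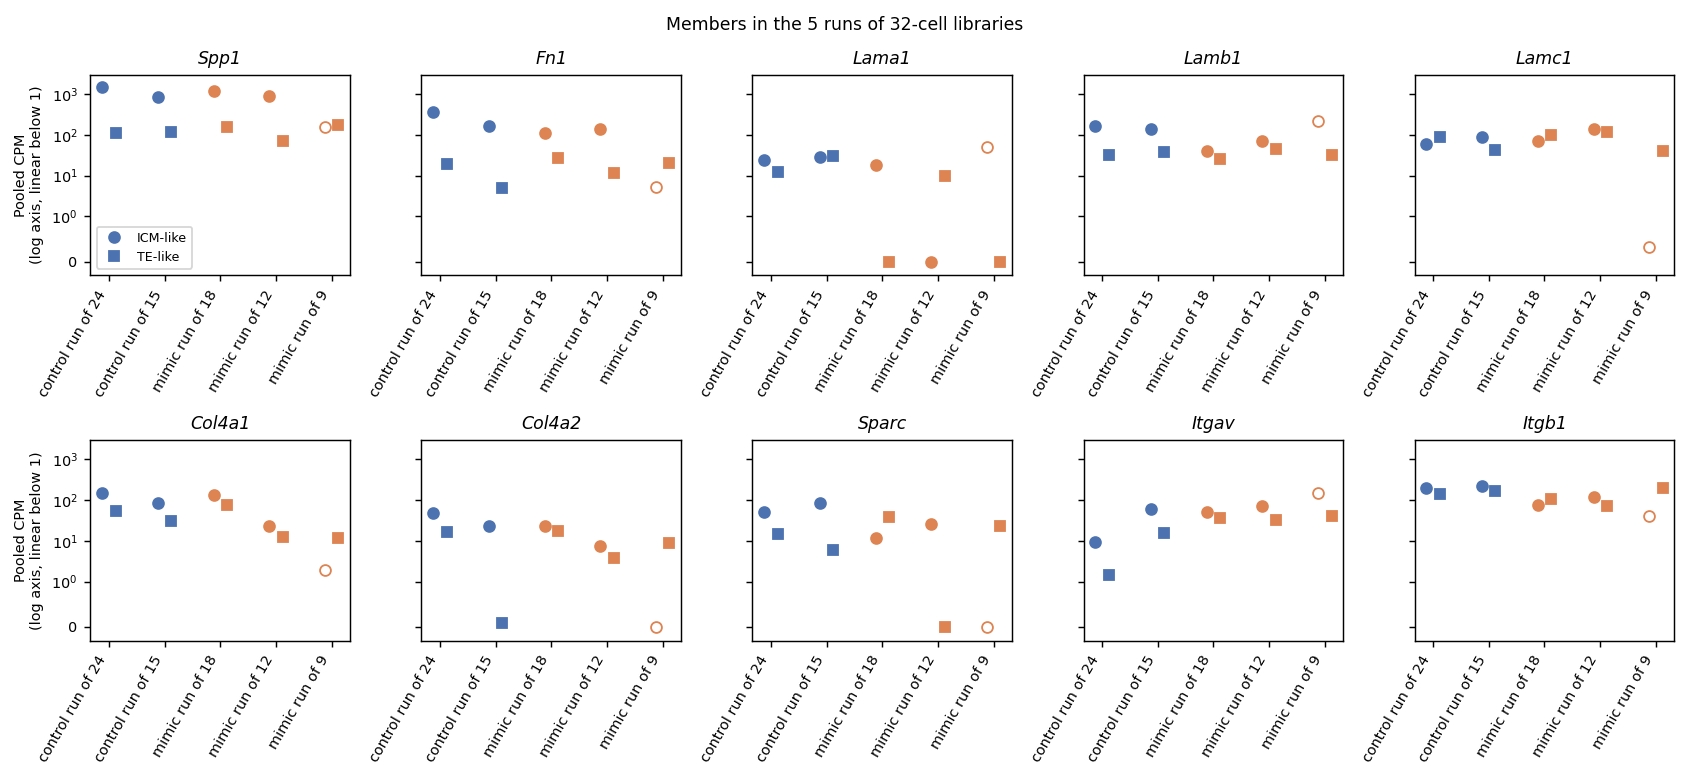
Pooled CPM of each member (vertical axis logarithmic above 1 and linear below) in ICM-like cells (circles) and TE-like cells (squares) of the 5 runs of 32-cell libraries, control in blue and mimic in orange, open where fewer than 5 cells were pooled. Itgav is lower in the control run of 24 cells than in the other 4 runs in both classes, and Col4a1 is higher in the mimic run of 18 cells than in the other mimic runs.

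Levels of the chains of one protein were compared per kilobase of the longest annotated coding transcript, since the reads cover whole transcripts. In 32-cell control cells Lama1 stood at 2.42, Lamb1 at 18.1 and Lamc1 at 9.16 CPM per kilobase, so the alpha-1 chain was 0.134 (0.126 to 0.142) of the beta-1 chain. In 8-cell control cells that ratio was 0.033 (0.024 to 0.0444). With all annotated exons as the length these ratios were 0.226 and 0.0557. Lamb1 over Lamc1 per kilobase was 2.97 (2.82 to 3.12) in ICM-like and 0.644 (0.592 to 0.7) in TE-like control cells, and 1.3 (1.2 to 1.39) and 0.533 (0.498 to 0.571) in mimic cells. With that length the ICM-like mimic ratio was 0.82 and the ICM-like control ratio 1.88. The ICM-like mimic ratio above 1.0 rested on the run of 9 cells, whose 2 ICM-like cells held 646 counts of Lamb1 and 1 of Lamc1. In the ICM-like cells of the mimic runs of 18 and 12 cells the ratio was 0.745 and 0.7. In TE-like cells it was 0.462 in the control run of 24 cells, 1.16 in that of 15, and 0.343, 0.506 and 1.05 in the mimic runs of 18, 12 and 9 cells.

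All 3 laminin chains had counts together in 11 of 39 32-cell control cells (28.2%, exact binomial interval 15.0 to 44.9) and in 1 of 39 mimic cells (2.56%, 0.0649 to 13.5). These intervals cover the counting of cells only, and since cells share embryos they compare no treatments. By class it was 10 of 25 ICM-like and 1 of 14 TE-like control cells, and 0 of 14 ICM-like and 1 of 25 TE-like mimic cells. Another 13 control cells and 12 mimic cells held Lamb1 and Lamc1 without Lama1. At the 8-cell stage 0 of 30 control and 0 of 24 mimic cells held all 3, where Lama1 itself had counts in 1 cell of each group. A cell without counts at this depth is not shown to lack the transcript.

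Col4a1 over Col4a2 per kilobase was 3.36 (3.17 to 3.56) in 32-cell control and 3.85 (3.52 to 4.22) in 32-cell mimic cells, and between 3.16 and 4.92 in the 4 class pools. By run it was 3.06 and 4.56 in control and 1.38 to 4.72 in mimic. Both chains had counts in 23 of 39 control and 15 of 39 mimic cells. Col4a1 was found without Col4a2 in 12 control cells, and the reverse in 1. Itgav over Itgb1 per kilobase was 0.649 (0.619 to 0.68) in 8-cell control and 0.0595 (0.056 to 0.0633) in 32-cell control cells, and 0.397 and 0.234 in mimic. The 32-cell control runs of 24 and 15 cells had 0.0193 and 0.113, and the 32-cell mimic runs 0.199 to 0.284. The number of members with a count in a cell had a median of 3 in both 8-cell groups, of 9 in ICM-like control, 7 in ICM-like mimic and 6 in both TE-like groups.

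**Figure D4:**
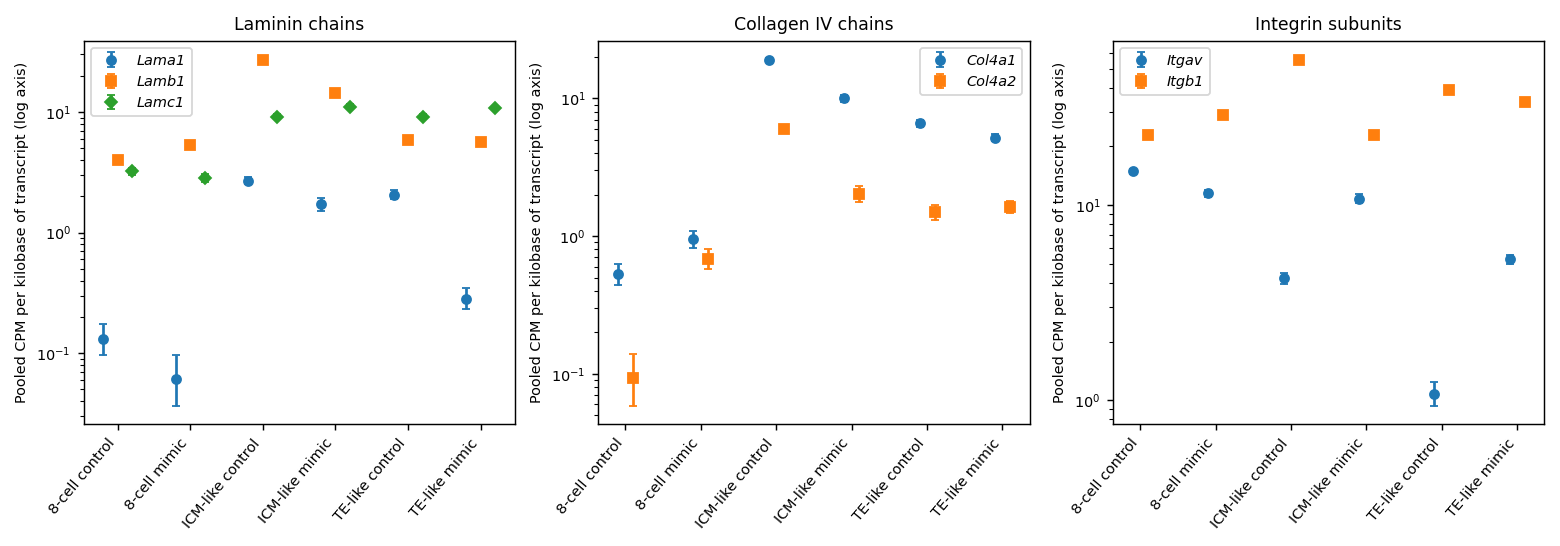
Pooled CPM per kilobase of the longest coding transcript (logarithmic axis) for the laminin chains, collagen IV chains and integrin subunits in 6 groups of cells, with 95% intervals of the counting error. Lamb1 over Lamc1 is 2.97 in ICM-like control cells and 0.533 in TE-like mimic cells, and Col4a1 lies above Col4a2 in every group.

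The other matrix and adhesion genes, a list of 61, went both ways. From the 8-cell to the 32-cell stage in control, 27 of the 61 reached 20 CPM, of which 14 were higher and 5 lower, with a median log2 change of 1.01, beside 30% higher and 20.1% lower over all genes. In mimic it was 12 higher and 4 lower of 25, beside 29.1% and 18.8%. The laminin alpha-3 chain gene Lama3 had 0 counts in both 8-cell groups and 82.6 CPM in 32-cell control cells, which is at least 1012-fold higher over a limit of 3 counts in the pool. The lysyl hydroxylase gene Plod2, which modifies collagen, had 0 counts in 8-cell control cells and 74.6 CPM in 32-cell control cells. Syndecan-4 (Sdc4), a co-receptor for fibronectin, was 213 and 4149.7 CPM. In mimic, Itga3, a laminin receptor subunit, was 107.2 CPM at the 8-cell and 3.74 CPM at the 32-cell stage.

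Between the control classes 5 of 25 list genes were higher and 5 lower in ICM-like cells, beside 11.9% higher and 10.1% lower over all genes. Among them were the laminin beta-2 chain gene Lamb2 (1.47 against 28 CPM) and the nidogen gene Nid2 (5.93 against 72.7 CPM) as the most TE-like and Plod2 (119.7 against 14.4 CPM) as the most ICM-like. Between the mimic classes it was 1 higher and 5 lower of 24, beside 7.67% and 8.39% over all genes. Nid2 was at 2.07 against 23.1 CPM, the collagen galactosyltransferase gene Colgalt1 at 29.8 against 80.6 CPM and the vinculin gene Vcl, an adaptor of focal adhesions, at 53 against 112.3 CPM.

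Between mimic and control, 2 of 21 list genes were higher and 1 lower at the 8-cell stage (6.96% and 6.09% over all genes), and 3 of 26 higher and 2 lower at the 32-cell stage (6.87% and 5.36%). In ICM-like cells it was 2 higher and 2 lower of 25 (10.7% and 9.55% over all genes), and in TE-like cells 5 higher and 4 lower of 27 (12% and 7.51%). At the 32-cell stage Pxn (paxillin, an adaptor of focal adhesions) was 33 CPM in control and 9.9 CPM in mimic, and the laminin alpha-5 chain gene Lama5 was 64.1 and 148.6 CPM. The largest list change in TE-like cells was that of syndecan-1 (Sdc1), 1.44 CPM in control and 22 CPM in mimic.

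Partners that bind or build on the members had mixed levels. Nid1, the linker of laminin and collagen IV, was 196.9 CPM in 8-cell, 182.2 CPM in ICM-like and 45.9 CPM in TE-like cells of control embryos, and 223, 99.6 and 48.6 CPM in mimic. Itga6, which pairs with Itgb1 in a laminin receptor, was 54 CPM in 8-cell and 172.9 CPM in 32-cell control cells, and Itga5, its counterpart for fibronectin, 10.9 and 22.9 CPM. Cd44, a receptor for osteopontin, had 0 counts in all pools, which allows at most 0.172 CPM in the smallest. Serpinh1, the collagen chaperone HSP47, was under 10 CPM throughout, where ICM-like cells held 8.91 CPM in control and 1.15 CPM in mimic.

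Correlations across single cells describe how far the members went together. Over the 39 32-cell control cells, which share their class difference, Pearson's r of log2(CPM + 1) was highest between Spp1 and Fn1 (0.62), Fn1 and Col4a1 (0.57) and Spp1 and Sparc (0.55), and over the 39 mimic cells the same pairs had 0.44, 0.10 and 0.09. These pairs were picked for their control values, and other pairs had the higher value in mimic: Fn1 and Lamb1 had 0.31 in control and 0.53 in mimic, Col4a1 and Col4a2 0.18 and 0.50, and Spp1 and Lamb1 0.14 and 0.39. Lamc1 had its lowest values with Col4a2 (-0.19) and Spp1 (-0.18). Other genes were likewise ranked by their control values. Among 6609 of them, those closest to Spp1 in control were Spic (0.81), Etv5 (0.79) and Gpcpd1 (0.78), with 0.64, 0.25 and 0.46 in mimic. Spic is one of the ICM markers that named the classes. Those closest to Fn1 were Rnf130 (0.82), Sat1 (0.81) and Pecam1 (0.81), with 0.11, 0.36 and 0.36 in mimic. The top values of the other 8 members lay between 0.50 for Lamc1 with Csnk2b and 0.65 for Col4a1 with Wdr18, and in mimic those same pairs had 0.17 and -0.14.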

How the data were processed

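Gene-level values of 132 single cells were analysed. The deposited values are expected counts, which the authors made with STAR and RSEM on mm10 (STAR 2.5.1b and RSEM 1.3.0 in the submitters' processing notes), and all were whole numbers. Expected counts share out reads that fit several transcripts. Counts were summed per group. Levels were CPM without the 13 mitochondrial genes, with exact Poisson intervals (scipy 1.17.1). Each group was 1 sample, since no label ties cells to embryos. No test was therefore made, and changes are differences of log2(CPM + 1), called at 1 or more in genes at 20 CPM in either group.

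ICM-like and TE-like cells were clusters of 32-cell cells (Seurat 5.3.0, 2000 variable genes, 25 components, resolution 0.6), formed without 71 members and matrix genes and named by 9 markers each. The plan was to describe the 10 members, the 3 list genes with the largest change per comparison, and the 3 genes most correlated with each member. Members and lists were chosen with earlier results of these data known. Y-linked genes were chosen after the data were seen. Alternatives were other pseudocounts, minima, scalings and classes, cells of 1 sex and leaving out each run. The calculation was tested on simulated cells with planted changes. These cells were drawn independently, without embryos, runs, sex or classes, so the simulation cannot show how calls depend on those.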

Additional observations from a re-analysis of the deposited data

How the results depend on the processing

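Counting error, given by the intervals, was small beside the spread between cells and runs, and no label gives embryos, so the error of a group is unknown. No member's call changed direction under any alternative run. The number of members past 2-fold between mimic and control TE-like cells was 1 and became 2 with a pseudocount of 0.1 CPM, a minimum of 5 CPM or none, the mean of each cell's CPM, cells thinned to 500000 counts, median-of-ratios scaling, classes by marker score or from all genes, and mean log2(CPM + 1). Between 32-cell mimic and control cells it was 7 and became 4 with a pseudocount of 5 CPM. Between the stages in mimic it was 4 and became 7 with a minimum of 5 CPM or none. Between 8-cell groups it was 0 and became 1 with no minimum (Col4a2) and with mean log2(CPM + 1) (Itgav), and 3 in cells with Xist and no Y-linked count, of which mimic had 3. In ICM-like cells it was 5 and became 9 with mean log2(CPM + 1). The cause of these moves was not tested, except that a lower minimum admits members that the main minimum leaves out.

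Leaving out 1 run gave 2 to 7 members between 32-cell groups, 2 to 7 in ICM-like cells, 1 to 3 in TE-like cells, 2 to 8 between the mimic classes, 6 to 8 between the control classes, 8 to 10 between the stages in control, 3 to 5 in mimic and 0 between 8-cell groups. Leaving out either large 8-cell run left under 5 cells and was not run. Median-of-ratios scaling moved the median of all genes between the stages from 0.20 to -0.08 in control and from 0.20 to -0.13 in mimic. The higher share of calls went from 59.9% to 49.4% there in control, from 60.8% to 47.9% in mimic, and from 61.4% to 49.6% between TE-like groups. Under it 9 members passed between the stages in control, without Itgb1, and 8 between 32-cell groups, with Spp1 at -1.03. Of the single members' log2 changes, 615 of the alternative values stayed within the counting interval of the main value and 465 moved out of it. No paired analysis was possible because each group was 1 sample, a cell's number only names it, and no test was made.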
